A study of Mus musculus with 6 samples.

Results

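CBE_1 and CBE_2 are mouse pro-B lines, grown in culture from an early stage of B lymphocyte development, that carry the same labelled genotype, and their open chromatin was compared with each other here. Of the 6 ATAC-seq libraries of the study, the 4 of these lines were used, 2 per line, and the wild-type libraries were left out. Both lines are given as strain 129SV, bone marrow, RAG2-deficient and IGCR1-/-, with mutated alleles written CBE-/-(1) and CBE-/-(2), and neither received a treatment. Each library came from 200000 cells and 11 cycles of PCR. The labels do not say how the 2 sets of alleles differ, whether a line is 1 clone, or whether the duplicates of a line were grown apart, so the spread between duplicates may be technical. Line, clone and allele cannot be told apart in any value below.

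ATAC-seq uses a transposase to cut DNA that is not packed by nucleosomes, and a peak marks a stretch with many cuts, most often a promoter, an enhancer or a site bound by the insulator protein CTCF. The immunoglobulin heavy chain (IgH) locus holds VH, DH and JH segments, which the RAG1 and RAG2 recombinase joins in pro-B cells. IGCR1 is a control region between the VH and DH segments whose CTCF-binding elements hold recombination near the DH end and away from the nearest VH segments. Without RAG2 the segments stay unjoined, so the locus can be read in its germline order. The enhancers at either end of the constant genes, the intronic Eμ and the 3' regulatory region, act on transcription and on class switching.

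Peaks of the 4 deposited lists that overlapped by 1 bp or more were merged, which gave 119327 regions in build mm9. The CBE_1 lists held 72318 and 80242 peaks, and the CBE_2 lists 94665 and 97522. Both CBE_2 lists were longer than both CBE_1 lists. The covered length was 52.6 and 59.6 Mb for the CBE_1 lists, below the 69.0 and 70.1 Mb of the CBE_2 lists. Read depth is unknown, since the files give peaks and no reads. A list's length moves with depth as well as with chromatin, so each count was repeated after every list was shortened to its 72318 peaks with the best −log10 p, called lists of equal length below. Gene names are used only for 40 windows set from general knowledge of mm9, with approximate borders.

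The label was checked against windows of cell type markers, which show open chromatin and not expression. Regions open in all 4 libraries were present at each of these pro-B windows: 17 at Pax5, 22 at Ebf1, 10 at Rag1 and Rag2, 7 at Vpreb1 and Igll1, 8 at Cd79a, 9 at Cd79b and 7 at Il7r. The strongest peak at the surrogate light chain genes Vpreb1 and Igll1 (chr16:16863420-16868295) had folds over background of 28.4 and 23.8 in the CBE_1 libraries, and 22.9 in each CBE_2 library. A fold is the authors' value for a peak within its own list. No library had a peak in the window of Kit, the stem cell factor receptor, or of Bcl11b, a T-lineage factor. The T-lineage windows of Tcf7, Gata3 and the Cd3 genes did have shared regions, 8, 2 and 1 of them. So did the progenitor and myeloid windows of Flt3 and Spi1, with 21 and 6.

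Most of the open chromatin of either line was also open in the other, and what was open in 1 line alone was mostly weak and lay mostly in CBE_2. Of all regions, 52244 (43.8%) had a peak in all 4 libraries. A further 2529 (2.12%) had a peak in both CBE_1 libraries and in neither CBE_2 library, called CBE_1-only below, and 14872 (12.5%) were CBE_2-only. The CBE_2-only count was 5.88 times the CBE_1-only count. Among the better 50% of each list, 60.1% of regions were open in all 4, 1.83% were CBE_1-only and 14.5% CBE_2-only. Single libraries alone held 33397 regions (28.0%), from 5300 in CBE_1 replicate 1 to 11374 in CBE_2 replicate 2. Both CBE_2 libraries and only CBE_1 replicate 2, the longer of the CBE_1 lists, shared 7807 regions, against 2162 shared with only CBE_1 replicate 1. Duplicates also differed: 68.2% of the regions seen in CBE_1 were in both of its libraries, and 73.7% in CBE_2.

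With lists of equal length the gap between the lines narrowed and kept its direction. Of 94798 regions, 48602 (51.3%) were open in all 4 libraries, 3992 (4.21%) were CBE_1-only and 7846 (8.28%) CBE_2-only, a ratio of 1.97. Of those 3992, 49.9% had a peak of at least 1 CBE_2 library further down its full list. Of the 7846, only 8.35% had a CBE_1 peak in the full lists, where CBE_1 replicate 1 had none left to add.

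The balance of the 2 classes depended on how deep the lists were read. With the best 10000 peaks of each list, 1183 regions were CBE_1-only and 1145 CBE_2-only, a ratio of 0.968. The ratio then rose at every step to 1.97 at 72318 peaks, and the share of regions open in all 4 peaked in between, at 72.2%. Nearly all line-only regions of the best 10000 were also open in the other line at a lower rank: 99.7% of the CBE_1-only and 98.8% of the CBE_2-only regions had such a peak, and 4 and 14 had none. Among the strongest sites the lines therefore differed by order and hardly by presence.

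**Figure D1:**
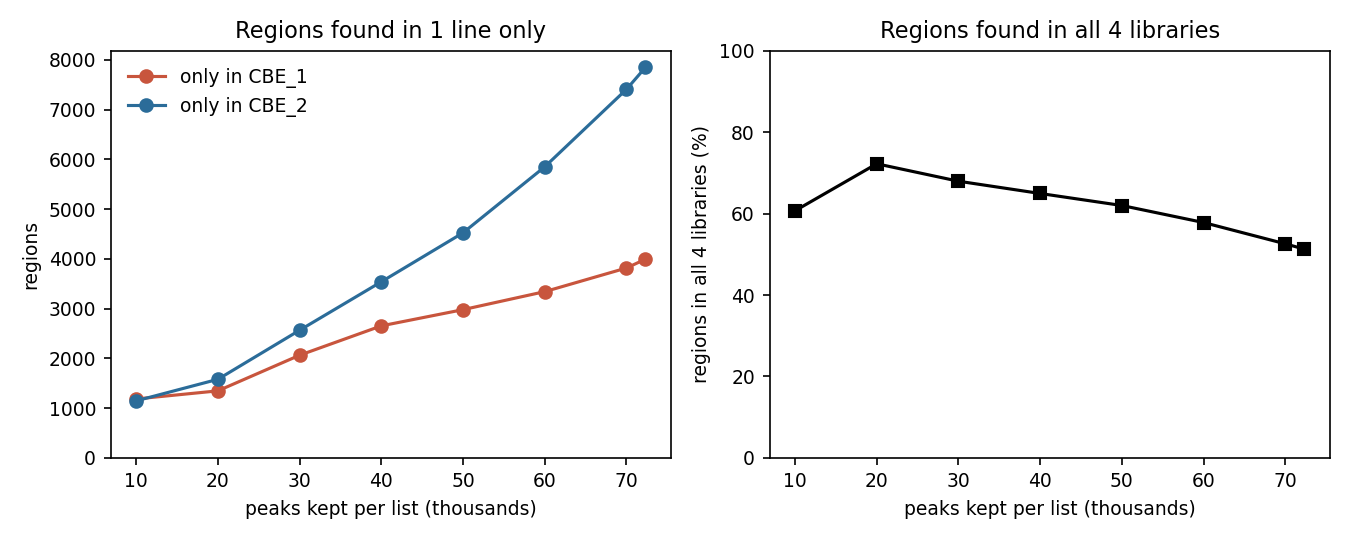
Left, regions found only in CBE_1 or only in CBE_2 against the number of best peaks kept from each list; right, the percentage of regions open in all 4 libraries against the same number. The counts of the lines are close at 10000 peaks (1183 and 1145) and draw apart to 3992 and 7846 at 72318 peaks.

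Regions open in 1 line alone were narrow and low in their own lists. Median width was 408 bp for CBE_1-only and 394 bp for CBE_2-only regions, against 892 bp for those open in all 4. A list percentile gives the share of a library's own peaks that rank below a peak. In the library of the line where a region ranked lower, its median was 14.1 for CBE_1-only and 23.3 for CBE_2-only regions, and 59.7 for those in all 4. In the better 50% of both own lists lay 248 CBE_1-only regions (9.81%) and 1838 CBE_2-only regions (12.4%). Above the 90th percentile of both own lists lay 1 and 10. CBE_1-only regions also sat closer to common sites: the nearest region open in all 4 was at a median of 2.84 kb, and within 5 kb for 61.2%. For CBE_2-only regions the median was 9.18 kb, with 38.6% within 5 kb.

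**Figure D2:**
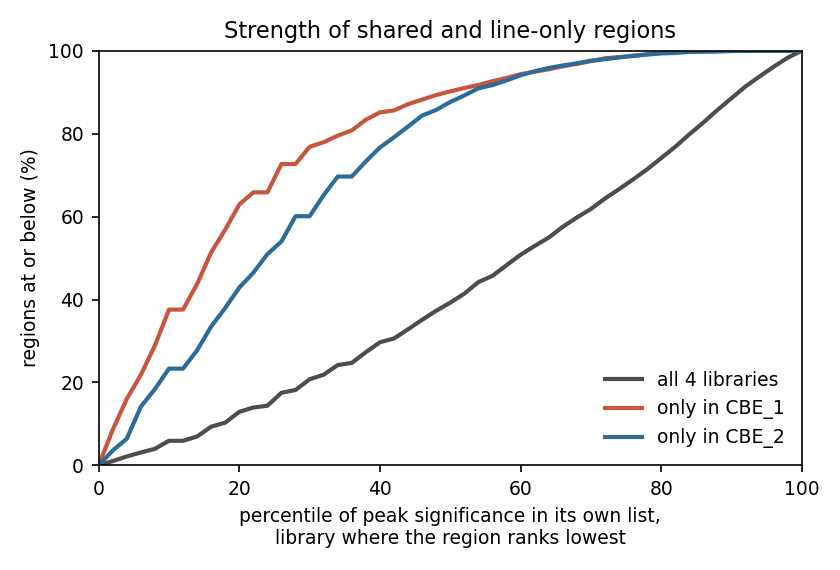
Cumulative percentage of regions by list percentile in the lowest-ranking library, for regions open in all 4 libraries, CBE_1-only and CBE_2-only regions. The line-only curves rise far to the left of the common regions, with medians of 14.1 and 23.3 against 59.7.

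The strongest CBE_1-only region was chr12:72931307-72933193, with folds of 22.0 and 17.8 and list percentiles of 90.5 and 91.3. Next came chr15:53176448-53178464, with folds of 21.3 and 19, and chr18:65145422-65147792, with 19.3 and 17.5. The 10 strongest CBE_1-only regions lay on 10 different chromosomes. Of the 10 strongest CBE_2-only regions 5 lay in clusters. The strongest was chr11:113611002-113614129, with folds of 26.4 and 23.0 at list percentiles of 99.5 and 99.1, and another, chr11:113590054-113594155 with folds of 18.8 and 18.6, lay on the same stretch of chromosome 11. A group of 3 lay on chromosome 6: chr6:113961548-113962529 (folds 20.1 and 19.97), chr6:113985335-113987445 (20.1 and 18.7) and chr6:113937678-113938903 (16.8 and 15.6). All 20 of these regions had the same pattern with lists of equal length. That was fixed in advance, since strong peaks stay in a shortened list and shortening adds no peak to the other line.

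CBE_2-only regions also formed long unbroken runs. A run here is 10 or more line-only regions in sequence along a chromosome, with no region of all 4 libraries or of the other line alone between them, while regions of other patterns may lie there. CBE_2 had 30 such runs with 425 regions on 13 chromosomes, at a median span of 906 kb and up to 3349 kb, and CBE_1 had 2. In 11 of the CBE_2 runs neither CBE_1 list had a single peak. At equal list length CBE_2 had 9 runs and CBE_1 had 6, of which 5 lay on chromosome 18.

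The largest run, chr16:85538406-86873819, held 32 CBE_2-only regions, with 47 and 51 CBE_2 peaks against 4 and 2 CBE_1 peaks. A cluster of stronger sites was chr6:113815634-114026948, where 29 regions carried 31 and 36 CBE_2 peaks and 1 and 0 CBE_1 peaks. Its CBE_2 folds reached 20.1 and 19.97, while the sole CBE_1 peak had a fold of 2.87. The run chr11:113576535-113670100 held 18 regions in 93.6 kb with no CBE_1 peak, and includes the strongest CBE_2-only region. These runs therefore range from compact clusters of strong peaks to megabase stretches of scattered weak ones.

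The run chr10:48769466-50032236 fills the window of Grik2, which encodes a glutamate receptor subunit of the nervous system. The CBE_2 lists had 26 and 27 peaks there and the CBE_1 lists none, and 20 of the 30 regions were CBE_2-only. The highest folds were 9.81 and 10.7. The clearest CBE_1 run was chrX:47919495-47976660: 15 regions with 16 and 15 CBE_1 peaks, folds up to 14.6 and 11.3, and no CBE_2 peak. The other CBE_1 run, chr18:80836488-80872643, had 24 and 26 CBE_1 peaks with folds up to 3.62 and 3.75, beside 3 and 2 CBE_2 peaks.

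Peaks at common sites were wider in CBE_2. Over the 52244 regions open in all 4 libraries, the median number of bases under peaks was 624 and 687 in CBE_1, against 756 and 761 in CBE_2. The lines did not overlap, and the difference of their means was -103 bp. An exact two-sided permutation test over the libraries gave p = 0.333, which is the smallest p that 2 libraries against 2 can give, so none of the differences tested here could pass 0.05. The widths kept their order with lists of equal length, at 667 and 729 bp against 805 and 807 bp. Region by region, 23296 (44.6%) were wider in both CBE_2 libraries than in both CBE_1 libraries, and 6176 (11.8%) the reverse. Of the regions wider in CBE_2, 50.5% also ranked higher there, beside 31.3% of all shared regions. Of those wider in CBE_1, 73.7% also ranked higher there, beside 33.9%.

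Strength at common sites was compared by rank, since folds of different lists are not on 1 scale. Within each library the 52244 shared regions were turned into percentiles of fold, from 0 for the weakest to 100 for the strongest. The order was alike within and between lines: Spearman's rho over these regions was 0.951 between the CBE_1 libraries, 0.979 between the CBE_2 libraries, and 0.879 to 0.892 between libraries of different lines. The regions of a library share its depth and are not independent, so these values are descriptions. The median change of percentile was 4.07 points between the CBE_1 duplicates, 3.04 between the CBE_2 duplicates and 6.53 to 7.63 between lines. Summits of shared single-peak regions lay close together, at medians of 29 to 35 bp within and 34 to 39 bp between.

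A shared region counts as higher in a line when both libraries of that line rank it above both of the other. By that rule 17730 (33.9%) were higher in CBE_1, 16345 (31.3%) were higher in CBE_2 and 18169 (34.8%) overlapped. The shares were 34.4% and 31.7% with lists of equal length and 35.4% and 34% with the better 50% of each list. Percentiles of every library are taken over the same shared regions, so a near balance of the lines is largely fixed in advance. These shares therefore cannot tell whether either line was more open across the genome. Gaps of over 10 percentile points were found at 4474 regions (8.56%) for CBE_1 and 4605 (8.81%) for CBE_2, and gaps of over 30 at 406 and 625.

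The widest gap of all was at chr1:196444636-196449496, with percentiles of 0.959 and 4.66 in CBE_1 against 98.0 and 97.2 in CBE_2. Its folds were 2.71 and 2.92 against 24.6 and 21.9. It lies close to another of the strongest CBE_2-only regions, chr1:196484759-196487490, and to a run of 19 CBE_2-only regions, chr1:196511370-196642738. The site thus sits beside a stretch of chromosome 1 with almost no peaks in CBE_1. In the other direction the widest gap was at chr16:46009917-46011350, with percentiles of 90.7 and 92.1 in CBE_1 against 0.511 and 1.16 in CBE_2. Next were chr2:174119794-174122201, at 86.8 and 84.2 against 0.511 and 0.626, and chr2:34759886-34761230, at 96.6 and 97.0 against 10.9 and 13.5.

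Peaks were also spread differently over the chromosomes, most of all on chromosome 18. It held 5.68% and 5.97% of the CBE_1 peaks and 3.12% and 3.12% of the CBE_2 peaks, a difference of 2.71 percentage points (exact permutation p = 0.333). Of its 6019 regions, 598 were CBE_1-only and 160 CBE_2-only, the reverse of the balance over the genome. Its shared regions also ranked higher in CBE_1 more often, 55.4% against 16.9%. At equal list length the shares were 5.68% and 5.40% against 3.03% and 3.06%.

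The excess on chromosome 18 lay in weak peaks. Among the strongest 25% of each list, chromosome 18 held 3.24% and 3.28% of the CBE_1 peaks and 2.99% and 2.99% of the CBE_2 peaks. Over the better 50% of each list the difference was 0.574 points. Among the weakest 25% it held 9.30% and 10.4% against 3.19% and 3.22%. The share in CBE_1 thus grew as peaks became weaker, while that in CBE_2 hardly moved. With lists of equal length the ratio of CBE_1 to CBE_2 peaks was 1.36 to 1.68 in each of the 7 bins of 10 Mb nearest the start of the chromosome, 1.94 and 2.97 in the next 2, and 3.94 in the last, where peaks were few (30 and 37 against 8 and 9). Copy number was not measured, and its part in this was not tested.

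**Figure D3:**
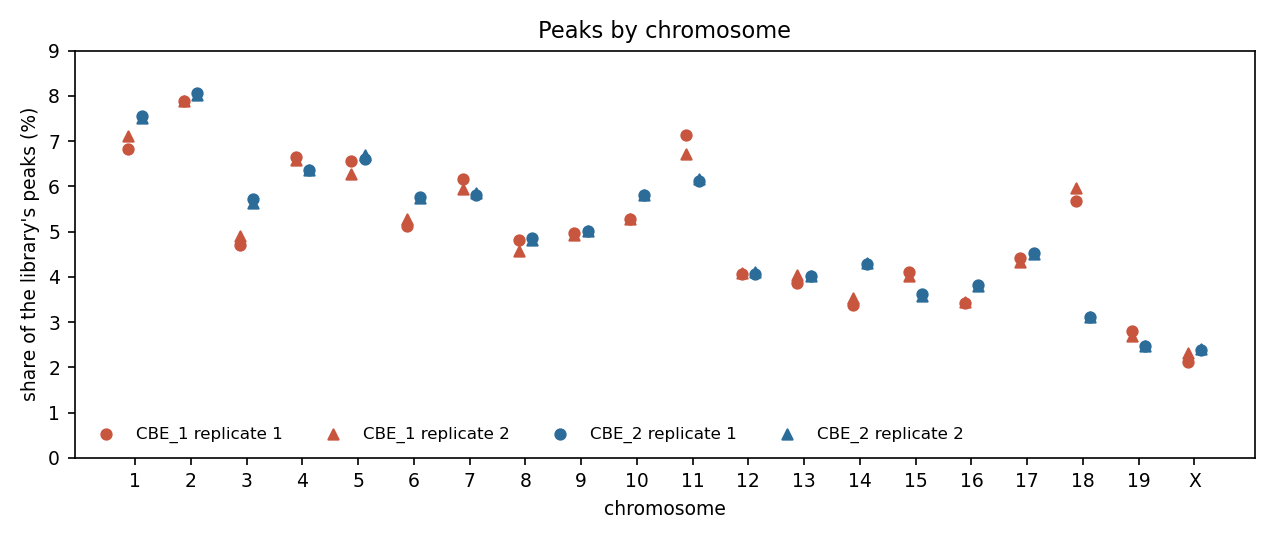
Percentage of each library's peaks on each chromosome, with 1 point per library and the lines in separate colours. Chromosome 18 stands apart, at 5.68% and 5.97% in CBE_1 against 3.12% and 3.12% in CBE_2.

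Elsewhere the differences were smaller. On chromosome 11 the CBE_1 libraries had 7.14% and 6.72% of their peaks and the CBE_2 libraries 6.12% and 6.16%, a difference of 0.791 points (exact permutation p = 0.333) that fell to 0.395 points at equal list length. Chromosome 15 followed, with 4.10% and 4.01% against 3.63% and 3.58%, a difference of 0.452 points, or 0.196 at equal list length. In the deposited lists chromosomes 3, 14 and 1 differed most the other way: chromosome 3 had 4.71% and 4.91% in CBE_1 against 5.72% and 5.63% in CBE_2, and chromosome 14 had 3.39% and 3.54% against 4.28% and 4.31%. On chromosome 1 the values were 6.82% and 7.12% against 7.55% and 7.52%. At equal list length the order changed to 14, 1, 10 and 3, with differences of -0.635, -0.606, -0.470 and -0.451 points. In the deposited lists both CBE_1 libraries lay above both CBE_2 libraries on 6 of 20 chromosomes (4, 7, 11, 15, 18 and 19) and below them on 12.

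Ranks of shared regions showed patches that the peak shares did not. These values are from lists of equal length, over bins with at least 30 shared regions. On chromosome 13, whose peak share was alike in the lines, 42.8% of shared regions ranked higher in CBE_1 and 28.1% in CBE_2. Bins near its start stood out: in the 10-Mb bin chr13:20000001-30000000, 78.5% ranked higher in CBE_1 and 4.71% in CBE_2, with a median difference of 16 points. The bin chr15:20000001-30000000 was the widest in the other direction, with 80.5% higher in CBE_2, 4.88% higher in CBE_1 and a median difference of -12.8 points. It also held 34 CBE_2-only regions against 1 CBE_1-only region, although chromosome 15 as a whole leaned to CBE_1. The bin of each direction was picked as the extreme of its kind and is a description.

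At the mutated locus itself, open chromatin ranked higher and was more frequent in CBE_1, while across the genome line-only regions were more frequent in CBE_2. The IgH window, from chr12:114401580-117250039 by its outermost regions, held 356 regions, of which 187 were open in all 4 libraries, 21 (5.90%) were CBE_1-only and 5 (1.40%) CBE_2-only. On the rest of chromosome 12 these shares were 1.55% and 13.5%. The window took 0.389% and 0.394% of the CBE_1 peaks and 0.270% and 0.276% of the CBE_2 peaks, a ratio of 1.43 (exact permutation p = 0.333). Of its shared regions, 123 (65.8%) ranked higher in CBE_1 and 17 (9.09%) in CBE_2. On the rest of the chromosome 29.0% ranked higher in CBE_1 and 33.1% in CBE_2, so the rest of the chromosome did not share the lean. At equal list length 30 regions were CBE_1-only and 2 CBE_2-only.

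Around IGCR1 the lines differed little. The window from the Cμ exons to IGCR1 held 9 regions, 7 of them open in all 4 libraries and none confined to both libraries of 1 line. The strongest shared region of the window, chr12:114664701-114670117, taken as that of the intronic enhancer Eμ from its position, ranked high in every library, at percentiles of 89.1 and 88.3 in CBE_1 against 95.1 and 89.0 in CBE_2. A pair of regions further toward IGCR1 was also alike: chr12:114684250-114684750 had percentiles of 64.1 and 60.8 against 63.5 and 65.7, and chr12:114684987-114686129 had 65.9 and 63.6 against 64.9 and 64.5. The lines overlapped at all 3. The outermost region, chr12:114719468-114720093, was a weak peak with a fold of 3.02 in CBE_1 replicate 1 and folds of 2.82 and 2.79 in CBE_2, and without a peak in CBE_1 replicate 2.

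The exceptions lay on the Cμ side of the enhancer. The region chr12:114655043-114656478 stood at percentiles of 43.8 and 47.3 in CBE_1, far above the 9.36 and 8.18 of CBE_2. The region chr12:114656706-114662723 stood at 57.7 and 43.5 against 33.0 and 33.6. Another, chr12:114663408-114664285, differed less, at 45.3 and 44.5 against 36.8 and 37.1. All 3 ranked higher in CBE_1, and none of the 7 ranked higher in CBE_2.

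At the far end of the constant genes, the 3' regulatory region with its flanking CTCF sites leaned the same way by small amounts. Of its 11 shared regions 9 ranked higher in CBE_1 and 0 in CBE_2, with a median difference of 5.01 points. The strongest, chr12:114404914-114407198, was near the top of every library, at 99.7 and 99.5 in CBE_1 against 99 and 99.3 in CBE_2, so the lines were less than 1 point apart there. Another, chr12:114464187-114467627, had percentiles of 85.6 and 85.7 in CBE_1 against 79.7 and 81.6 in CBE_2. Just beyond the locus the lean ended: of 13 shared regions in the next window, which holds Mta1, Crip2 and Crip1, 5 ranked higher in CBE_1 and 3 in CBE_2.

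The VH segments carried most of the difference, and not in an even way. Of their 165 shared regions, 110 (66.7%) ranked higher in CBE_1 and 16 (9.70%) in CBE_2, with a median difference of 8.35 points, beside 33.9% and 31.3% of all shared regions. Distances here are from the centre of the Eμ region. Within 500 kb, nearest IGCR1, 11 of 21 ranked higher in CBE_1, with a median difference of 6.62 points. From 500 to 1000 kb the order was mixed, with 7 of 24 higher in CBE_1, 10 higher in CBE_2 and a median of -0.64 points. From 1000 to 1500 kb it was 22 of 30, and from 1500 to 2000 kb 18 of 26. Beyond 2000 kb, among the distal VH segments, 52 of 64 ranked higher in CBE_1, with a median difference of 10.8 points.

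Single VH regions moved far. The region with the widest gap, chr12:116856494-116856981, lay at 2189 kb and had percentiles of 54.3 and 39.1 in CBE_1 against 7.87 and 6.93 in CBE_2. A region at 755 kb, chr12:115422165-115422658, had 45.3 and 35.3 against 1.81 and 12.1. One of the few that went the other way, chr12:115301210-115301972 at 634 kb, had 23.1 and 6.32 against 45.4 and 33.6. Most VH regions were of middle or low strength, and all shared regions of like strength showed the lean far less. Among shared regions at percentiles of 20 to 40, 77.1% of the 48 in the VH part ranked higher in CBE_1, against 31.1% of all shared regions in that band. At 40 to 60 these shares were 71.1% and 35.0%.

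**Figure D4:**
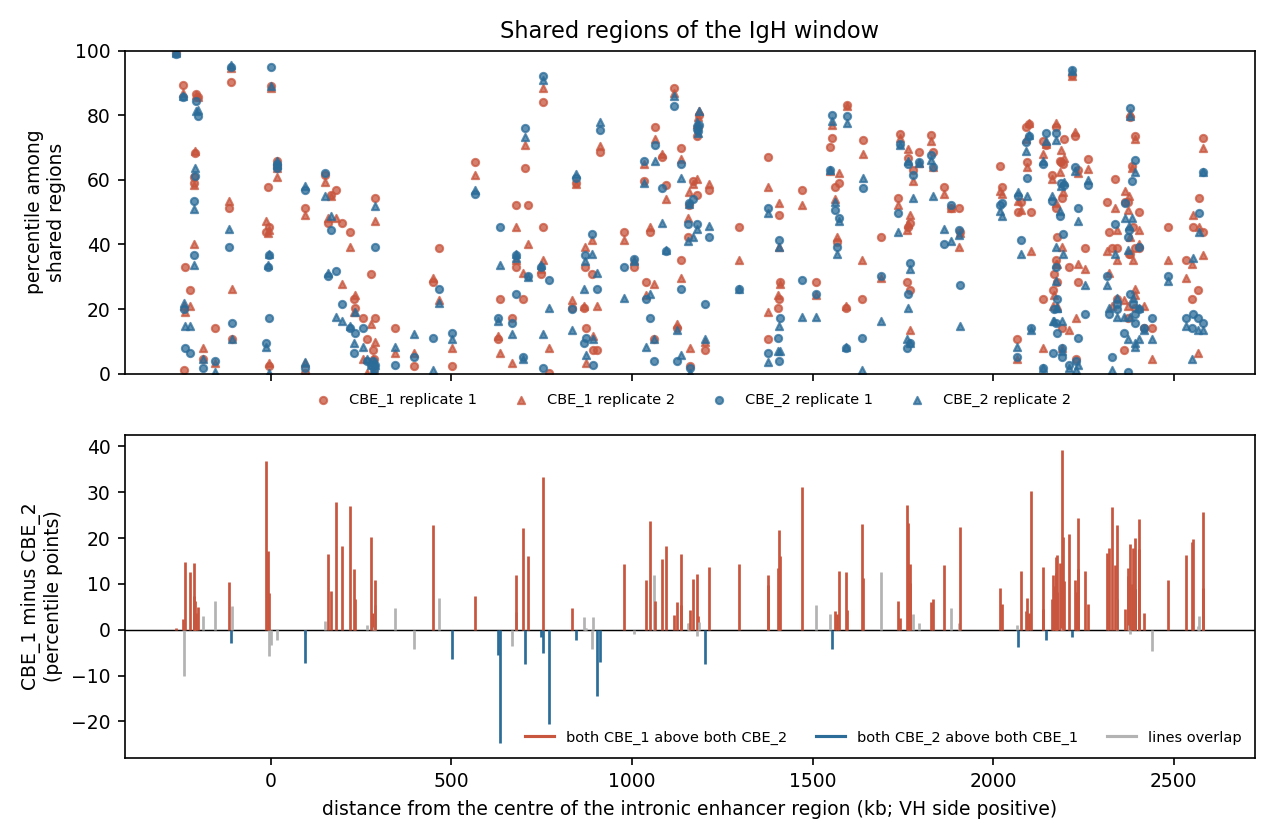
Percentiles of the shared IgH regions in each library (top) and the difference of the line means, CBE_1 minus CBE_2 (bottom), by distance in kb from the centre of the Eμ region, with regions whose lines do not overlap in colour. Most VH regions lie above 0 in the lower panel, apart from a mixed stretch.

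The Igk light chain locus, which is not mutated, leaned to CBE_1 as well. Its window held 244 regions, with 8 (3.28%) CBE_1-only and 6 (2.46%) CBE_2-only. On the rest of chromosome 6 these shares were 1.42% and 14.5%. At equal list length 16 regions of the window were CBE_1-only and 1 CBE_2-only. In the deposited lists the window took 0.259% and 0.279% of the CBE_1 peaks and 0.214% and 0.210% of the CBE_2 peaks. The ratio was 1.27 (exact permutation p = 0.333). Of its 156 shared regions 90 (57.7%) ranked higher in CBE_1 and 22 (14.1%) in CBE_2, and the median difference was 6.77 points. Over the other regions of chromosome 6 it was 23.8% and 40.1%. Whether IgH and Igk differ in this was not tested. Near the κ joining and constant segments and their enhancers, 8 of 13 ranked higher in CBE_1. The region chr6:70663646-70664684 stood at 77.1 and 73.6 against 58.0 and 58.5, while chr6:70659044-70660722 had 83.2 and 85.5 against 85.1 and 81.6 and did not separate the lines. The small lambda locus had 4 of 10 shared regions higher in CBE_1 and 3 in CBE_2.

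The T cell receptor beta locus, an antigen receptor locus that pro-B cells do not normally assemble, went the other way in rank. Of its 30 shared regions 18 (60.0%) ranked higher in CBE_2 and 1 in CBE_1, beside 31.3% and 33.9% of all shared regions, and the median difference was -6.08 points. Its line-only regions did not stand out: 7 of 60 (11.7%) were CBE_2-only, near the 12.5% of all regions.

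Genes of the B lineage were open in both lines, with differences of rank that depended on the gene. Over the 13 B-lineage windows, 283 regions in all, 8 (2.83%) were CBE_1-only and 16 (5.65%) CBE_2-only. Of all regions these shares were 2.12% and 12.5%. At equal list length the counts were 11 (4.80%) and 4 (1.75%), beside 4.21% and 8.28% of all regions. Of the shared regions in the deposited lists 38.9% ranked higher in CBE_1 and 20.1% in CBE_2, beside 33.9% and 31.3% of all shared regions.

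Ebf1, which encodes a factor that opens chromatin early in the B lineage, had 16 of 22 shared regions higher in CBE_1 and 1 higher in CBE_2, with a median difference of 8.21 points. Its region chr11:44720005-44720475 had percentiles of 37.2 and 43.5 against 3.91 and 4.66, and chr11:44741737-44742364 had 70.7 and 69.1 against 35.6 and 45.7. The strongest of the examples, chr11:44429209-44432164, differed less, at 95.7 and 92.3 against 85.4 and 88.4. Chromosome 11 as a whole leaned to CBE_1, with 47.9% of shared regions higher there and 19.8% higher in CBE_2. Irf4, a transcription factor of pre-B and plasma cells, had 4 of 5 shared regions higher in CBE_1 and a median difference of 13.4 points. Its region chr13:30840474-30843916 stood at 85.2 and 85.7 against 72.0 and 70.2. Irf4 lies in the bin chr13:30000001-40000000, next to the bin of chromosome 13 described above. With lists of equal length, 70.5% of the shared regions of that bin ranked higher in CBE_1 and 7.37% in CBE_2. The median difference over the bin was 10.5 points, so the lean was not confined to Irf4.

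Pax5, which encodes the factor that fixes B-lineage identity, had 8 of 17 shared regions higher in CBE_1 and 1 higher in CBE_2. Of all shared regions these shares were 33.9% and 31.3%. At equal list length they were 47.1% and 5.88% at Pax5, and 51.2% and 16.8% in its bin, chr4:40000001-50000000. The lean to CBE_1 was thus not confined to Pax5. The region chr4:44683476-44687736 stood at 86.8 and 84.8 against 69.7 and 67.8, and chr4:44768485-44770248 at 93.7 and 94.1 against 83.8 and 80.9. Within the Pax5 window 4 regions were CBE_1-only, of which 3 lay in a row: chr4:44724410-44725369 with folds of 5.88 and 4.79, chr4:44725722-44726812 with 6.33 and 5.21, and chr4:44729584-44730152 with 4.52 and 4.38. Cd79a, a signalling chain of the B cell receptor, had 5 of 8 shared regions higher in CBE_1. Foxo1, a forkhead factor that drives Rag transcription, had 6 of 13, with 0 higher in CBE_2 at either gene. At equal list length the bin of Cd79a, chr7:20000001-30000000, had 54.0% higher in CBE_1 and 16.1% in CBE_2. The bin of Foxo1, chr3:50000001-60000000, had 32.1% and 34.8%.

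Some B-lineage genes leaned to CBE_2, where 31.3% of all shared regions ranked higher. At Bcl2, a survival factor, it was 10 of 16, with 1 higher in CBE_1. At equal list length this was 62.5% against 6.25%, and 49.2% against 22.0% in its bin, chr1:100000001-110000000. At Rag1 and Rag2, 5 of 10 ranked higher in CBE_2 and 1 in CBE_1, with 4 CBE_2-only regions and 0 CBE_1-only. At equal list length this was 50% against 10%, and 53.8% against 16.6% in the bin chr2:100000001-110000000. The lean to CBE_2 was thus not confined to these genes. The region chr2:101463205-101465841 stood at 56.8 and 57.8 in CBE_1 against 85.1 and 80.9 in CBE_2, and chr2:101488180-101490127 at 79.1 and 78.4 against 93.0 and 87.8. At Ikzf1, which encodes Ikaros, 6 of 17 (35.3%) ranked higher in CBE_2, close to the 31.3% of all shared regions, and 2 in CBE_1. At Ikzf3, which encodes its relative Aiolos, 7 of 11 ranked higher in CBE_1. Il7r and the surrogate light chain genes had 2 regions each way.

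Growth-control genes ranked higher in CBE_2. Of the 24 shared regions of the 3 windows, 66.7% ranked higher in CBE_2 and 12.5% in CBE_1, beside 31.3% and 33.9% of all shared regions. At Cdkn2a and Cdkn2b, inhibitors of cyclin-dependent kinases, it was 5 of 7 against 1, and chr4:88938814-88942183 stood at 79.1 and 70.9 in CBE_1 against 96.2 and 94.2 in CBE_2. At Irs1, an adaptor of insulin receptor signalling, it was 6 of 7 against 0, and chr1:82281912-82285537 stood at 56.0 and 58.8 against 81.4 and 82.7. At Myc with its downstream domain it was 5 of 10 against 2. The counts per window are small, and the windows were chosen with earlier results of these data known.

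Over the 8 windows of other lineages, 17 of 130 regions (13.1%) were CBE_2-only, close to the 12.5% of all regions, and 1 was CBE_1-only. At equal list length the CBE_2-only share was 7.41%, below the 8.28% of all regions. Of their 68 shared regions 48.5% ranked higher in CBE_2 and 23.5% in CBE_1, beside 31.3% and 33.9% of all shared regions. The T cell receptor beta window described above is 1 of the 8 and weighs heavily in this. It gave 30 of the 68, with 18 of the 33 that ranked higher in CBE_2 and 1 of the 16 higher in CBE_1. The shares are therefore not a trait of the whole group, and single windows differed. Gata3, a factor of T and innate lymphoid cells, had 9 CBE_2-only regions of 13, and 12 peaks in each CBE_2 list against 3 in each CBE_1 list. Its shared region chr2:9799650-9801826 stood at 75.1 and 71.7 in CBE_1 against 93.0 and 92.5 in CBE_2, and its CBE_2-only region chr2:9794045-9795041 had folds of 10.3 and 9.56. The other T-lineage windows were mixed. T cell receptor beta leaned to CBE_2 in rank, as given above, and Bcl11b had no peak in any list. At Tcf7 5 of 8 shared regions ranked higher in CBE_1 and 2 in CBE_2. The window of the Cd3 genes had 1 shared region, which ranked higher in CBE_1, and 1 CBE_2-only region.

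The Hox clusters, arrays of developmental transcription factor genes, split by cluster. In Hoxa 10 of 25 regions were CBE_2-only and 0 CBE_1-only, and in Hoxb it was 7 of 27 against 1. The CBE_2-only region chr6:52108058-52109063 had folds of 10.2 and 9.77, and the shared region chr6:52161080-52164000 stood at 39.0 and 9.79 against 62.6 and 62.7. In Hoxb the shared region chr11:96172287-96173498 stood at 46.6 and 43.5 against 70.0 and 65.3. Hoxc differed, with 4 CBE_1-only and 2 CBE_2-only regions of 38, and Hoxd had 3 CBE_2-only and 0 CBE_1-only of 20. Since 12.5% of all regions were CBE_2-only, the Hoxd count is close to the background, and those of Gata3, Hoxa and Hoxb are above it. The Grik2 count is not set against that share, since a run of CBE_2-only regions fills its window. All of these windows were chosen with earlier results of these data known.

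**Figure D5:**
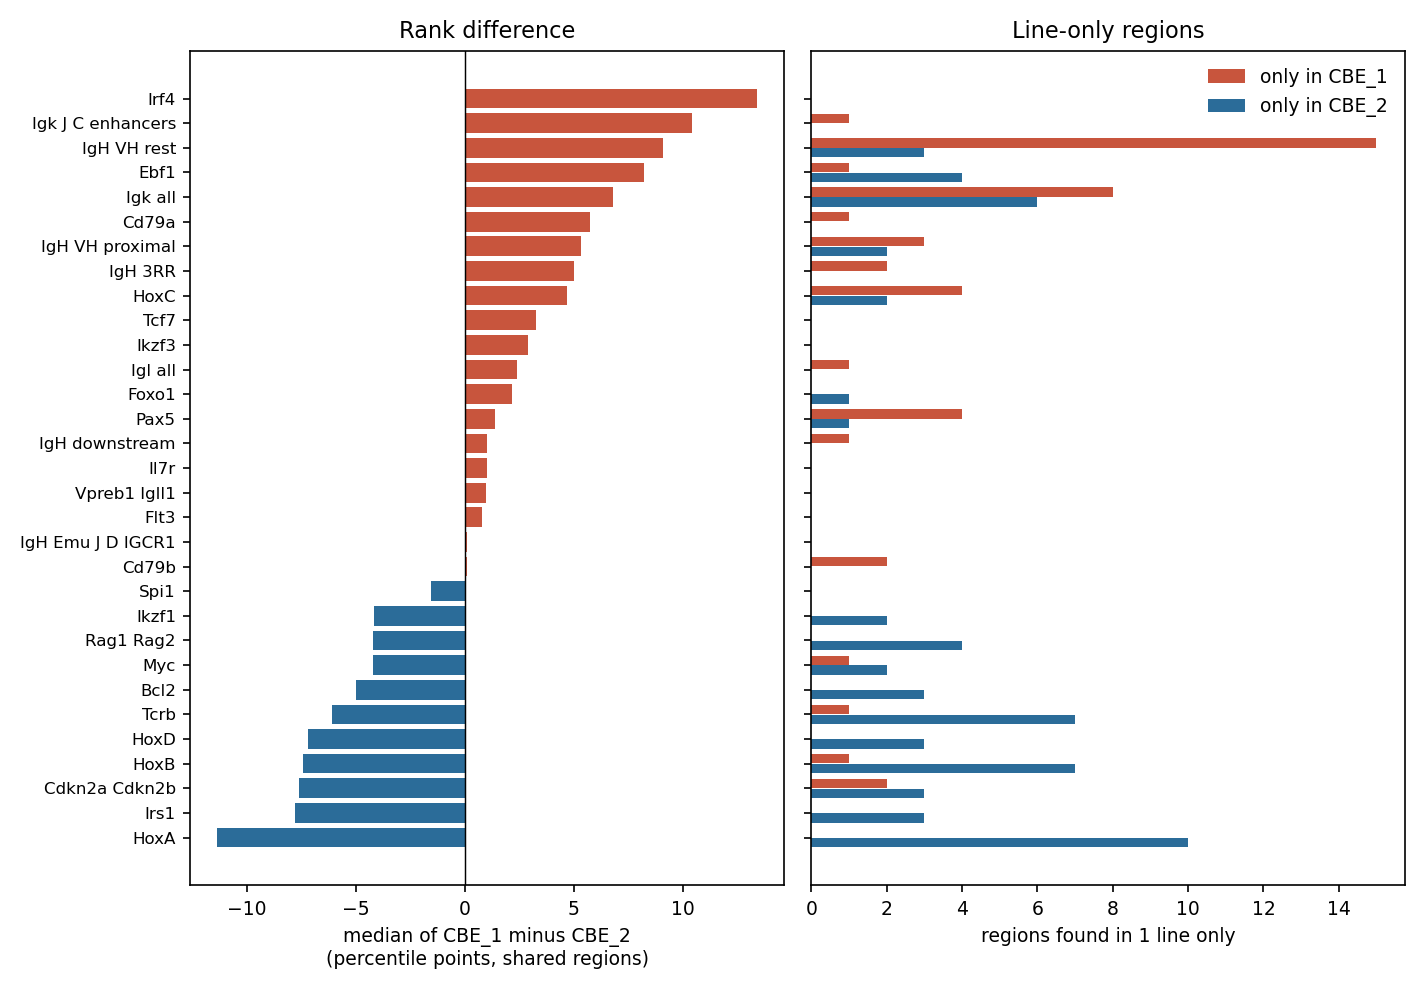
Median difference of percentile, CBE_1 minus CBE_2, for windows with 5 or more shared regions, and the number of CBE_1-only and CBE_2-only regions in each. Irf4, Igk near its enhancers, VH and Ebf1 lie to the CBE_1 side, and Hoxa, Irs1 and Cdkn2a to the CBE_2 side; Hoxd changes side at equal list length, and several windows near 0 change side under other settings.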

How the data were processed

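ATAC-seq libraries of CBE_1 and CBE_2 (2 each) were compared. Per the submitters' processing notes, Trimmomatic, Bowtie2, SAMtools and Picard and build mm9 were used, and libraries were sequenced as single reads per the labels. For the peak caller, its threshold and any shift of reads, nothing is given in the sources used here. For each peak the authors deposited a score, a fold (a ratio to background), and the p-value and q-value as −log10. How the background was set is not stated, and folds are not taken as corrected for regional signal. The score repeats the −log10 q-value on a coarser scale and was not used. Fold and −log10 p rank the peaks of a list in the same order.

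Replicates are numbered in accession order. Peaks were merged at an overlap of 1 bp or more with Python 3.11.15, pandas 2.3.3 and numpy 2.4.6. For regions with several peaks of a library the strongest was used. No test was run over regions, and library values were compared by exact permutation. Named were the 10 strongest line-only regions and the 10 widest rank gaps each way, the regions from Cμ to IGCR1, runs, the 3 chromosomes with the largest differences each way, and 40 windows. Regions quoted within windows were examples chosen after their values were seen. Members, windows and lists were chosen with earlier results of these data known. Merging and counting were checked on simulated lists. Sequences and gene annotation of mm9 were not used here. The values of 1 marker window are not reported here.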

Additional observations from a re-analysis of the deposited data

How the results depend on the processing

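With lists of equal length 3992 regions were CBE_1-only and 7846 CBE_2-only, with 6 and 9 runs. With the better 50% of each list they were 966 and 7635, with 1 and 9 runs, 11237 and 10788 shared regions ranked higher in CBE_1 and CBE_2, and 55 VH regions ranked higher in CBE_1. These lists hold fewer peaks by construction. Runs of 5 or more regions numbered 19 in CBE_1 and 274 in CBE_2, and without chromosome 18, an alternative chosen after seeing the data, CBE_1 had 1 run.

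Leaving out 1 library loosens the rules by construction. CBE_1-only regions then ranged from 3385 to 9708 (8257 without CBE_1 replicate 2, 9708 without CBE_1 replicate 1) and CBE_2-only regions from 17096 to 27201 (22870 without CBE_1 replicate 2, 25648 without CBE_2 replicate 2 and 27201 without CBE_2 replicate 1). CBE_1 had 1 to 22 runs (1 without CBE_2 replicate 1, 13 without CBE_1 replicate 2, 22 without CBE_1 replicate 1) and CBE_2 25 to 132 (117 without CBE_2 replicate 1, 132 without CBE_2 replicate 2). In all of these CBE_2-only regions outnumbered CBE_1-only regions.

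The median rank difference of the Hoxd window, -7.22, turned to 0.78 with lists of equal length and 5.89 with the better 50% of each list, and that of the lambda window, 2.41, ranged from -0.53 without CBE_1 replicate 2 to 3.03 without CBE_1 replicate 1. Windows with a median near 0 changed sign too, among them Il7r (0.99 to -6.29), the surrogate light chain genes (0.97 to -4.77) and Flt3 (0.77 to -10.8) with the better 50% of each list, Flt3 at equal length (-3.28), and Spi1 (-1.58 to 4.57) without CBE_1 replicate 1. The difference on chromosome 18, 2.71 points, fell to 0.574 with the better 50% of each list, and that on chromosome 11, 0.791, to 0.395 at equal length. The cause was not tested. In the settings not given here, counts of regions stayed within 1.5 times, and differences of width and peak share kept their sign. No paired analysis was possible because the labels carry no replicate numbers. Read depth is unknown, so the absence of a peak does not show closed chromatin.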
